A study of Mus musculus with 12 samples.

Results

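The mouse major histocompatibility complex, called H2, is described here in sorted bone marrow cells of 4 genotypes. Its members were taken by name: every gene of the deposited table whose symbol starts with H2-, which gave 42 of 37187 genes. RNA came from cells without lineage markers that carried Sca-1 and c-Kit (LSK cells, the gate for haematopoietic stem and multipotent progenitor cells). Wild type (WT) was compared with Tet2 KO, with Traf6 KO and with the double knockout Tet2;TRaf6 dKO (dKO below), with 3 libraries each and 12 in all. Tet2 makes an enzyme that oxidises methylated cytosine in DNA. The product of Traf6 is a ubiquitin ligase of Toll-like and interleukin-1 receptor signalling. The title of the series ties TRAF6 to MYC activity in acute myeloid leukaemia. The sources used here gave no strain, age, sex, deleted exons or Cre driver. They also do not say that a group stands for 3 different animals, so p-values here rest on a spread among libraries that may be technical.

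H2 genes encode the molecules that show peptides to T cells. Classical class I chains (H2-K1, H2-D1) pair with beta-2-microglobulin on nearly all cells and present peptides made inside the cell. Non-classical class I genes of the Q, T and M regions are many, similar to each other in sequence and more restricted in expression, and several have other tasks, such as display of a single kind of peptide to natural killer cells by H2-T23 (Qa-1). Class II chains (H2-Aa, H2-Ab1, H2-Eb1) form alpha-beta pairs on B cells, dendritic cells and other presenting cells, and the accessory pairs H2-DM and H2-O edit and restrain their peptide loading. H2 is highly polymorphic, inbred strains carry different H2 haplotypes, and the number and content of Q and T genes differ between haplotypes. The reference genome is that of C57BL/6, whose haplotype carries a defective copy of the class II alpha chain gene Ea, listed as H2-Ea-ps.

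The 42 genes comprised 2 classical class I genes, 27 non-classical class I genes, 5 class II genes, 5 class II accessory genes and 3 others that carry the prefix. Those 3 were H2-K2, a class I pseudogene, H2-Ke2, which encodes a prefoldin subunit, and H2-Ke6, which encodes a dehydrogenase. All lie on chromosome 17 between 33938821 and 37483552 (GRCm38), a span of 3.54 Mb. The unit throughout is the authors' normalised signal, that is reads of a gene divided by a size factor of the library. Of the 42 genes, 29 had a signal of at least 10 in at least 3 libraries and were tested; this filter passes a gene that is high in 1 group alone. The 13 untested members were non-classical class I genes: H2-Q3 and 12 of the H2-M genes. Their highest signal was 11.54 (12 reads), and 5 of them were at 0 in every library.

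Many members are near copies, so a short read may match more than 1 of them. The coding sequences of H2-Q7 and H2-Q10 share an identical run of 93 bases. The windows below are shown for how close the copies are: a read that lies wholly in an identical stretch matches several genes, while one that covers a differing base may be told apart. They are 60 bases from the part that encodes the membrane-proximal alpha-3 domain of class I chains, read from GENCODE M21 transcripts on GRCm38, with capitals for bases that differ from H2-Q7.
H2-Q7, chr17:35442410-35442469, plus strand: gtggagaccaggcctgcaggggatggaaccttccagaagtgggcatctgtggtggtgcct
H2-Q4, chr17:35383001-35383060, plus strand: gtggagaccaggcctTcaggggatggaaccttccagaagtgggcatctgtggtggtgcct
H2-Q2, chr17:35344898-35344957, plus strand: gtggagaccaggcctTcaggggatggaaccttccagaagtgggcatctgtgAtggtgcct
H2-T23, chr17:36030895-36030954, minus strand: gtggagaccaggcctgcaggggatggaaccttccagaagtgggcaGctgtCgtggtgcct
The windows of H2-K1, H2-D1, H2-Q1, H2-Q6 and H2-Q10 had 0 differences from that of H2-Q7. Over whole transcripts, the share of 50-base stretches that also occur in another gene was 9.63% for H2-K1, 12.8% for H2-D1, 15.0% for H2-Q1 and 16.1% for H2-Q2. It was 36.4% for H2-Q4, 36.4% for H2-Q5, 19.1% for H2-Q10, 50.4% for H2-T10 and 53.5% for H2-T22. It was 0% for the class II genes H2-Ab1, H2-Eb1, H2-Eb2 and H2-Ea-ps and for H2-Ob. The sources used here do not say how reads with several matches were treated, so values of class I copies are uncertain to that extent.

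Before the results, libraries that stood apart are named. Tet2 signal was 525 to 783 in WT, 403, 486 and 668 in the libraries labelled Tet2 KO and 197 to 326 in dKO. Traf6 signal was 1935 to 3006 in WT, 568, 854 and 2474 in the libraries labelled Traf6 KO and 799 to 1313 in dKO. The highest of each knockout group, the libraries labelled Tet2 KO 1 and Traf6 KO 1, lay within the WT range, although reads of undeleted exons also count toward these values. The knocked-out gene passed in dKO (Tet2 log2 change -1.39, limma adjusted p = 0.00659; Traf6 -1.36, adjusted p = 0.0278) but in neither single knockout (Tet2 -0.41, adjusted p = 0.969; Traf6 -1.28, adjusted p = 0.497). Female-specific Xist was at 990 or above in the 6 single-knockout libraries and at 17.03 or below in WT and dKO. Y-linked Eif2s3y was at 2812 or above in WT and dKO, and among single knockouts only the library labelled Traf6 KO 1 (1524) was above 55.4. Genotype and sex therefore cannot be told apart where a single knockout is compared with WT or dKO, nor in the interaction term. The normalised total of dKO 3 was 39973892 against 25557760 to 28916082 in the other 11 libraries, and its class I and II values were often the highest of all. Calls against WT that change without these 3 libraries (Tet2 KO 1, Traf6 KO 1, dKO 3) are given beside the genes named.

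Levels between genes were compared per kilobase of exon. In WT, H2-D1 (33957 signal units per kb) and H2-K1 (19007 per kb) were highest, followed by the non-classical H2-Q6 (7592 per kb), and then H2-Ab1 (2113), H2-T23 (1969) and H2-Q7 (1849). H2-Aa (1018), H2-DMa (1021) and H2-M3 (950 per kb) formed a lower level. Class II transcripts were thus read in these bulk libraries at a small part of the level of the classical H2-D1 and H2-K1. H2-Ab1 stood beside the non-classical H2-T23 and H2-Q7. Which cells held the class II transcripts was not tested. The WT libraries overlapped between H2-Aa and H2-DMa, and no order is read between them.

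The clearest pattern across genotypes was a set of members high in WT and much lower in all 9 other libraries. In the comparison of Tet2 KO with WT, 8 of 29 tested members passed the threshold, 1 higher and 7 lower, where 0.413% of all 14045 tested genes passed (0.107% higher, 0.306% lower). In Traf6 KO against WT, 7 of 29 passed, 0 higher and 7 lower, where 0.271% of all genes passed (0.0783% higher, 0.192% lower). In dKO against WT, 16 of 29 passed, 6 higher and 10 lower, but there 48.3% of all genes passed (21.9% higher, 26.5% lower), so the share of 55.2% stands near the background in that fit. With equal library totals, which moved the median of all genes in dKO from -0.09 to -0.34, the split was 4 higher and 12 lower. There 45.9% of all genes passed (2292 higher and 4172 lower of 14087). After correction for the trend of transcript length and GC content in each library the split was 3 higher and 12 lower. In that fit 29.2% of all genes passed (2301 higher and 1688 lower of 13679). The median log2 change of the 29 members was -0.46, -0.57 and 0.02 in the 3 comparisons, beside 0.02, -0.03 and -0.09 over all tested genes. These comparisons share the WT libraries, so they are not separate evidence. Leaving out WT 1, 2 or 3 left 4, 3 or 1 members past the threshold in Tet2 KO and 2 each time in Traf6 KO. The shares of all genes were 0.158%, 0.129% and 0.0932% in Tet2 KO and 0.115%, 0.101% and 0.108% in Traf6 KO. In those fits genes seen only in WT, such as H2-Q1 and H2-Ea-ps, failed the filter of 3 libraries. Leaving out WT 2 left 10 in dKO, where 33.7% of all genes passed. Without dKO 3, 12 members passed in Traf6 KO against WT, where 0.57% of all genes passed. Without the 3 libraries that stood apart the counts against WT were 9, 10 and 19, where 2.23%, 0.531% and 42.1% of all genes passed.

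**Figure D1:**
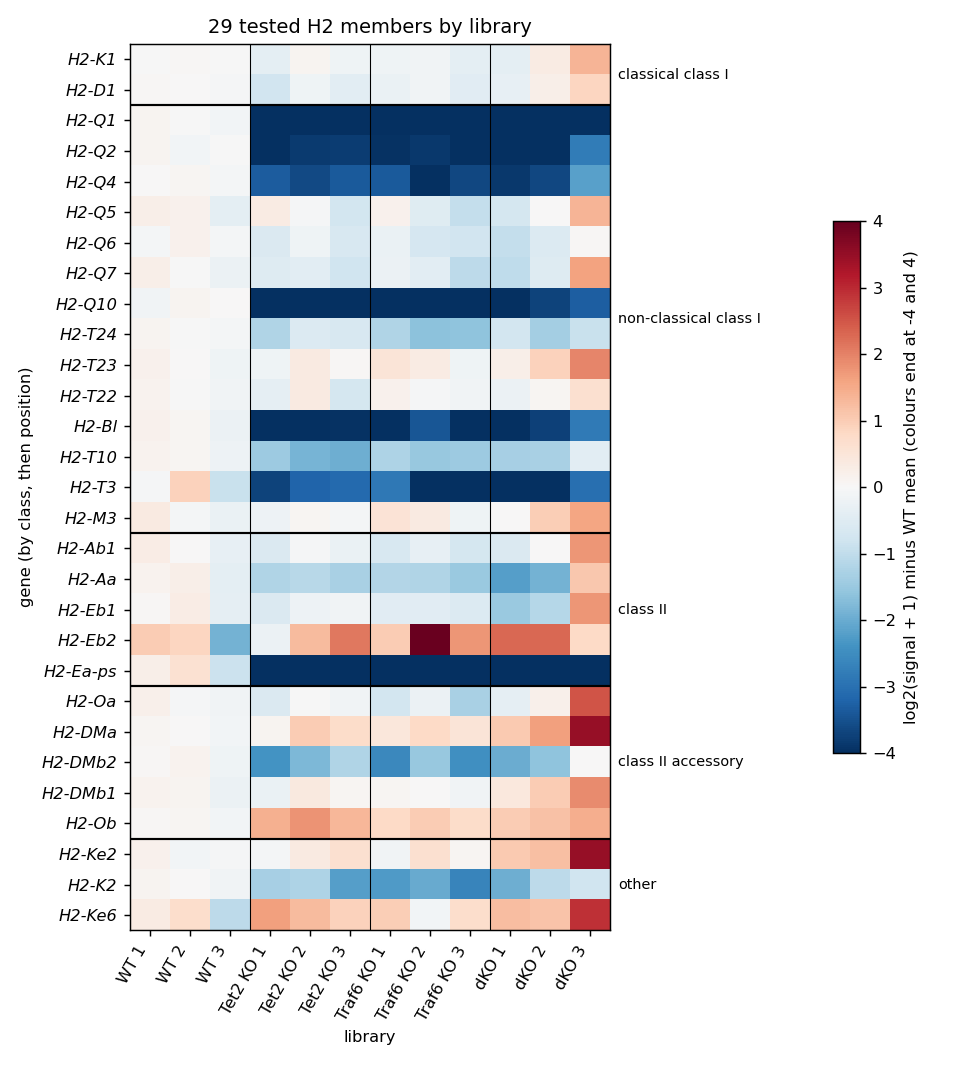
Each row is 1 of the 29 tested members and each column 1 library; colour is log2(signal + 1) minus the WT mean of that gene, ending at -4 and 4, with lines between classes and genotypes. H2-Q1, H2-Q2, H2-Q4, H2-Q10, H2-Bl and H2-Ea-ps are dark blue in the 9 libraries outside WT, apart from paler cells of dKO 3, while H2-K1 and H2-D1 stay near their WT level except in dKO 3.

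Of the non-classical class I genes, 14 were tested, and 6, 5 and 8 fell in Tet2 KO, Traf6 KO and dKO. H2-Q1 (chr17:35320405-35325099, plus strand, a Q region class I gene) had signals of 216, 199.9 and 188 in WT. It had 0, 0 and 1.04 in Tet2 KO, 0, 1.16 and 1.78 in Traf6 KO, and in dKO 0.94, 1.30 and 1.79. No library outside WT held more than 2 reads of it, against 304, 175 and 195 reads in WT. From the summed reads WT was 397-fold above Tet2 KO (95% counting interval 109 to 3280), 209-fold above Traf6 KO (71.1 to 1010) and 162-fold above dKO (55.1 to 786). Such intervals hold counting error alone, as PCR copies of 1 molecule are counted separately. On the log2(signal + 1) scale the change was -7.31 (SE 0.83, limma adjusted p = 0.000707), -6.80 (adjusted p = 0.0014) and -6.44 (adjusted p = 0.000311). H2-Q1 passed the filter through its WT libraries alone, so these p-values follow a selection on high WT values.

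H2-Q2 (chr17:35342242-35346762) lay beside it and was also read at a low level outside WT. Its signals were 579.7, 496 and 527 in WT, 30.6, 36.8 and 37.8 in Tet2 KO, 33.6, 36.0 and 16.9 in Traf6 KO, and in dKO 17.8, 31.3 and 75.1. The groups did not overlap, and dKO 3 was the highest outside WT. The WT mean was 15.2-fold, 18.5-fold and 12.9-fold above the 3 other means, with log2 changes of -3.89, -4.23 and -3.90 (SE 0.54; limma adjusted p = 0.00394, 0.00205 and 0.000372). The Tet2 KO call had an adjusted p of 0.0501 without WT 3.

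H2-Q4 (chr17:35379617-35385290) encodes a class I chain of the Qb group and was the most abundant of the falling genes. Its signals were 1408, 1486 and 1329 in WT, 140.3, 114 and 136 in Tet2 KO, 136, 85.8 and 112 in Traf6 KO, and in dKO 95.7, 112 and 311. Again every library outside WT was low and dKO 3 was the least so. The WT mean was 10.8-fold, 12.6-fold and 8.14-fold higher, with log2 changes of -3.43, -3.67 and -3.22 (SE 0.42; limma adjusted p = 0.00138, 0.000746 and 0.000324). This gene passed in these 3 comparisons with any 1 library left out.

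H2-Q10 (chr17:35470089-35474563), which encodes a secreted class I molecule best known from liver, was read at 104, 125 and 117 in WT. It was at 3.16, 1.94 and 3.11 in Tet2 KO, 5.46, 4.64 and 1.78 in Traf6 KO, and in dKO 5.63, 7.83 and 10.7, which is 2 to 6 reads per library. The log2 changes were -4.98, -4.64 and -3.72 (SE 0.69; limma adjusted p = 0.00394, 0.0076 and 0.00137). Outside WT only dKO 3 reached a signal of 10, so H2-Q10 too passed the filter through WT. H2-Bl (chr17:36080115-36084223, minus strand), a T region gene that GENCODE types as a polymorphic pseudogene, was at 247, 233 and 187 in WT and between 7.10 and 30.4 in the other 9 libraries. Its log2 changes were -4.24, -4.26 and -3.75 (SE 0.64; limma adjusted p = 0.00738, 0.00828 and 0.000889). The Tet2 KO and Traf6 KO calls of both genes were lost when some WT libraries were left out (highest adjusted p 0.063 and 0.126 for H2-Q10, 0.0915 and 0.11 for H2-Bl).

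The class II pseudogene H2-Ea-ps (chr17:34341959-34344645, minus strand), the Ea copy of the reference haplotype, had the same distribution. Its signals were 122, 159 and 56.8 in WT, from 172, 139 and 59 reads. It had 0 reads in the 3 Tet2 KO and the 3 Traf6 KO libraries and 1 read in dKO, in dKO 1. Against a floor of 3 reads per library, it was at least 44.3-fold lower in Tet2 KO and at least 38.1-fold lower in Traf6 KO. WT was 266-fold above dKO (95% counting interval 47.5 to 10500). The limma adjusted p was 0.00394, 0.00489 and 0.000439, and no stretch of 50 bases of its transcript occurs in another gene. It passed the filter through its 3 WT libraries alone, so these p-values follow a selection on high WT values. With any WT library left out it was not tested.

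**Figure D2:**
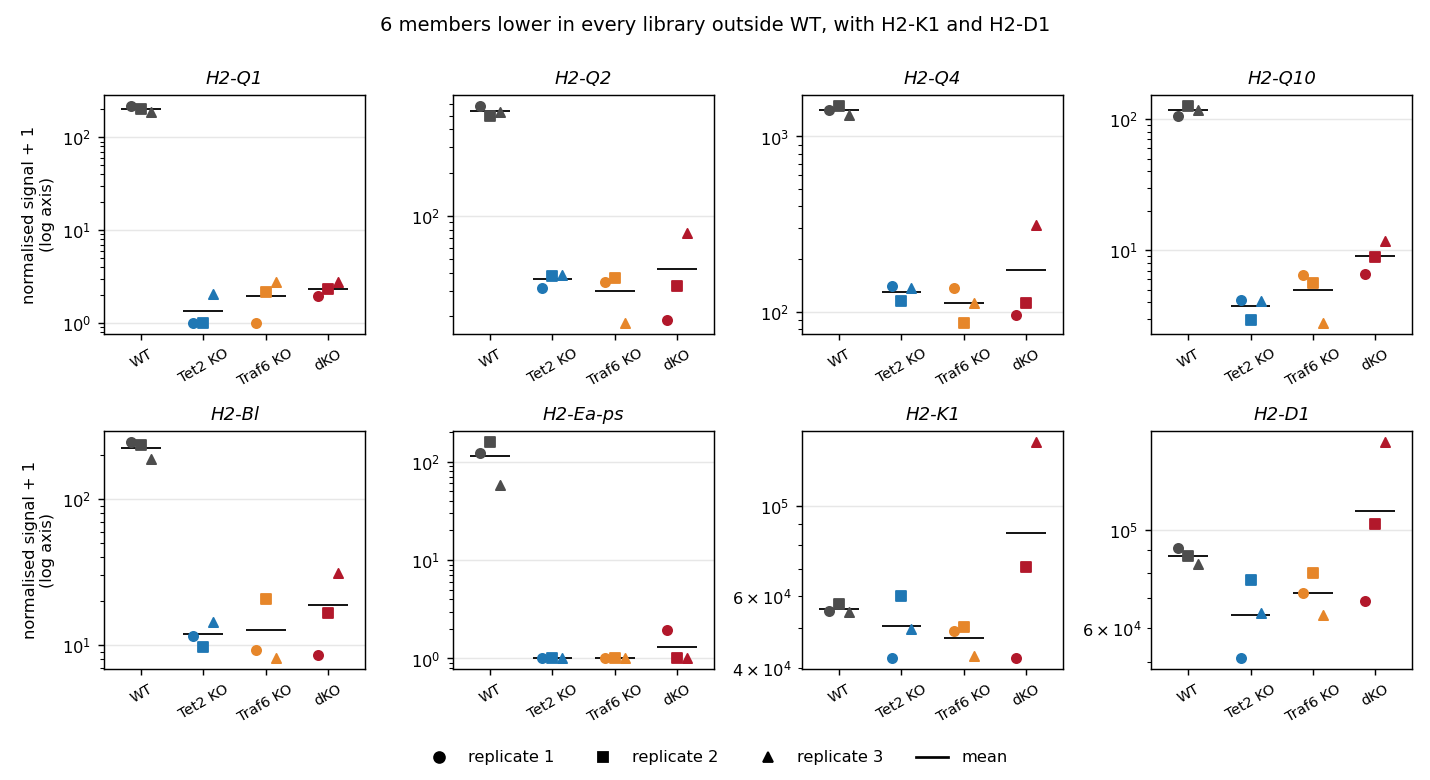
Points are single libraries by genotype on a log axis of normalised signal + 1, marker shape gives the replicate number and bars are means (n = 3). H2-Q1, H2-Q2, H2-Q4, H2-Q10, H2-Bl and H2-Ea-ps are high in the 3 WT libraries and low in the other 9, while H2-K1 and H2-D1 span 42152 to 159207 with overlapping groups in dKO.

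These 6 genes were grouped after their values were seen. The libraries labelled Tet2 KO 1 and Traf6 KO 1, whose targeted gene stood within the WT range, were as low in them as the other libraries of their groups. The dKO libraries, which matched WT in Xist and Eif2s3y, were low too. Both statements are descriptions of genes picked by these same values. Reads of undeleted exons count toward the targeted genes, and why the 6 genes were low outside WT was not tested. Together H2-Q1, H2-Q2, H2-Q4, H2-Q10 and H2-Bl made up 1.37% to 1.38% of all class I signal in the WT libraries and 0.0816% to 0.156% in the other 9. The untested pseudogene H2-Q3 was at 6.39, 9.14 and 11.5 in WT and at 0.91 or below elsewhere.

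The classical genes did not pass the threshold in any comparison with WT. H2-K1 (chr17:33996017-34000347, minus strand) had signals of 55286, 57478 and 54762 in WT, 42240, 60003 and 49863 in Tet2 KO and 49139, 50443 and 42738 in Traf6 KO. It had 42152, 70572 and 143735 in dKO. H2-D1 (chr17:35262730-35267499) had 91242, 87597 and 83888 in WT, 51046, 76863 and 64912 in Tet2 KO, 72079, 80050.1 and 64232 in Traf6 KO, and in dKO 69110, 103270 and 159207. The Traf6 KO libraries lay just below WT in both genes and the Tet2 KO libraries below WT in H2-D1. The dKO libraries overlapped WT, with dKO 3 far above the rest. Their log2 changes were -0.15 and -0.47 in Tet2 KO, -0.24 and -0.29 in Traf6 KO, and in dKO 0.43 and 0.25 (limma adjusted p between 0.293 and 1). With a SE of 0.33 and 0.26, changes of that size were not detectable here.

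H2-Q6 and H2-Q7, which encode the Qa-2 molecules, stayed high beside their falling neighbours. H2-Q6 had signals of 15056, 17635 and 14800.0 in WT, 10642, 13933 and 10128 in Tet2 KO, 13053, 9900.0 and 9356 in Traf6 KO, and in dKO 8148, 10691 and 16194. H2-Q7 had 9206, 7754 and 6694 in WT, 5420.3, 5801 and 4526 in Tet2 KO, 6605, 5786 and 3748 in Traf6 KO, and in dKO 3841, 5486 and 23639. For each of them 8 of the 9 libraries outside WT lay below the lowest WT library, yet no comparison with WT passed (log2 changes of -0.58 to 0.02, limma adjusted p between 0.122 and 0.976). After that correction H2-Q6 passed in dKO against WT (log2 change -0.88, adjusted p = 0.00763). Both passed there without the 3 libraries apart (H2-Q6 -0.76, adjusted p = 0.013; H2-Q7 -0.77, adjusted p = 0.0351).

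Values of genes that share stretches are set side by side here. Of the 50-base stretches of H2-Q10, 14.0% occur in H2-Q7 and 3.97% in H2-K1. In the 9 libraries outside WT, H2-Q7 ranged from 3748 to 23639 and H2-K1 from 42152 to 143735, while H2-Q10 held 2 to 6 reads. H2-Q1 shares 9.05% of its stretches with H2-Q2, and held at most 2 reads where H2-Q2 held 19 to 73. The part of shared reads in these values was not tested.

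**Figure D3:**
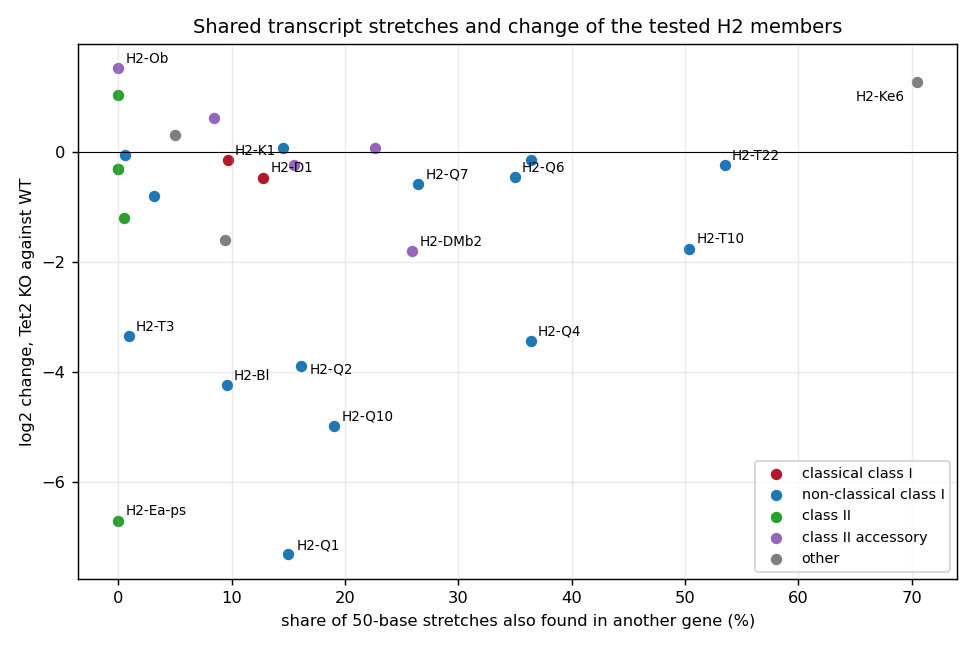
Each point is 1 of the 29 tested members, with the share of its 50-base transcript stretches that occur in another gene (%) on the horizontal axis and its log2 change in Tet2 KO against WT on the vertical axis, coloured by class. The lowest points, H2-Q1 and H2-Ea-ps, stand at shares of 15.0% and 0%, and members with shares above 50% include H2-T22, near 0, and H2-T10 at -1.76.

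Promoters of class I genes hold known elements, an NF-kB site and an interferon-stimulated response element upstream of a CCAAT box. Windows of 4 class I genes are shown as examples, and the part of these letters in the H2 values was not tested. They are the 200 bases before the start in RefSeq (GRCm38.p6), with capitals for exact matches on either strand to 3 motifs. GGGGATTCCC and AGTTTCACTTCT are the NF-kB and interferon elements as they stand in the H2-K1 window, and CCAAT is the box of that name. The matches do not overlap each other.
H2-K1, chr17:34000348-34000547, minus strand: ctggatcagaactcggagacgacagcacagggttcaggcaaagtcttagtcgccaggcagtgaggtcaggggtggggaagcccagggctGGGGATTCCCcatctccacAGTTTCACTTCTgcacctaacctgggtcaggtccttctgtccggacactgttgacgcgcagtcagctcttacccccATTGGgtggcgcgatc
H2-Q7, chr17:35438955-35439154, plus strand: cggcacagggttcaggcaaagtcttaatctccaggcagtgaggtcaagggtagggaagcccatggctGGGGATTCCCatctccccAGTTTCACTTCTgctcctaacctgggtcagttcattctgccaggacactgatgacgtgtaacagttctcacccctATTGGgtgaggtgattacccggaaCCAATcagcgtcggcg
H2-Q4, chr17:35379417-35379616, plus strand: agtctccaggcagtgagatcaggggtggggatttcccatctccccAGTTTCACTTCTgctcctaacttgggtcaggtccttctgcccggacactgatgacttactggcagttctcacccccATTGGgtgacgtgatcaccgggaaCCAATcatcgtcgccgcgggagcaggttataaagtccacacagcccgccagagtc
H2-Q10, chr17:35469889-35470088, plus strand: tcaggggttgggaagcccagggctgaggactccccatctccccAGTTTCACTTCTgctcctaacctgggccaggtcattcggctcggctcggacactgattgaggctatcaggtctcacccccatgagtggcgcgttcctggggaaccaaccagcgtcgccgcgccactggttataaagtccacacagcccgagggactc
A promoter was at hand for 31 of the 42 members. Besides H2-K1, from which its letters were read, GGGGATTCCC occurred in H2-D1, H2-Q6 and H2-Q7 (4 of 31 with H2-K1), against 0.067% of 32851 promoters of the same length. Only exact letters were searched. H2-Q4 holds ggggatttccc before its interferon element, which differs by an added t, stays in lower case and was not counted. AGTTTCACTTCT occurred in these 4 and in H2-Q4 and H2-Q10 (6 of 31, against 0.0244%), and CCAAT in 28 of 31 (against 29.3%). A match is a description of letters in this window and not a binding site, and the genomes of these mice were not analysed here.

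Further class I members were lower outside WT, of which H2-T10, H2-T24 and H2-K2 were so by smaller factors and H2-T3 was not. H2-T10, a T region class I gene whose product is a ligand of some gamma-delta T cells, had signals of 561, 537 and 443 in WT, 185, 140.4 and 131 in Tet2 KO, 218, 179 and 187 in Traf6 KO, and in dKO 202, 207 and 382. All 9 libraries lay below WT. It fell by 1.76 in Tet2 KO (SE 0.34, limma adjusted p = 0.0409) and by 1.02 in dKO (adjusted p = 0.0239), and in Traf6 KO the log2 change was -1.39 (adjusted p = 0.154). Its near copy H2-T22, with which it shares 31.7% of its stretches, ranged from 1063 to 1297 in WT and from 719 to 1821 elsewhere and passed in no comparison. The ratio of H2-T10 to H2-T22 was 0.417 to 0.458 in WT and 0.0936 to 0.21 in the other libraries, a description over ratios chosen after the values were seen. The Tet2 KO call of H2-T10 was lost in 7 of 12 fits that left out 1 library, among them each of the 3 WT libraries (adjusted p up to 0.316). The dKO call was lost without WT 1, WT 2, dKO 1 or dKO 2 (up to 0.0774).

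H2-T3, which encodes the thymus leukaemia antigen, was at 148, 288 and 80.8 in WT, 10.6, 15.5 and 16.6 in Tet2 KO, 20.0, 2.32 and 0.89 in Traf6 KO, and in dKO 1.88, 0 and 17.9. The WT mean was 12.1-fold, 22.2-fold and 26.1-fold above the 3 other means, a larger factor than for H2-Q4 in each. It fell in dKO (log2 change -5.33, SE 1.11, limma adjusted p = 0.00262). In Tet2 KO and Traf6 KO the changes were -3.35 and -4.90 with adjusted p of 0.297 and 0.117, although no library overlapped WT. H2-T24, another T region gene, was at 595, 551 and 519 in WT, 240.5, 378 and 352 in Tet2 KO, 242, 179 and 181 in Traf6 KO, and in dKO 333, 215 and 298. It fell by 0.99 in dKO (adjusted p = 0.018; lost without WT 1, WT 2 or dKO 2, up to 0.0686), with -0.80 (adjusted p = 0.416) and -1.48 (adjusted p = 0.0928) in the single knockouts. Without the 3 libraries that stood apart H2-T24 and H2-T3 passed in Traf6 KO as well (log2 changes -1.62 and -5.92, adjusted p = 0.0393 and 0.02).

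The class I pseudogene H2-K2, beside H2-K1, was at 839, 786 and 703 in WT, 306, 328 and 167 in Tet2 KO, 160.1, 193 and 122 in Traf6 KO, and in dKO 197, 370.4 and 447. It fell in Traf6 KO (log2 change -2.31, SE 0.38, limma adjusted p = 0.0176) and in dKO (-1.27, adjusted p = 0.0147). In Tet2 KO, where the groups did not overlap either, the change was -1.59 (adjusted p = 0.107; 0.0367 after correction for length and GC). The Traf6 KO call was lost without Traf6 KO 1 or 3 or any WT library.

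H2-T23, the Qa-1 gene, went the other way in dKO. Its signals were 6310.1, 5781 and 4974 in WT, 5042, 7306 and 5823 in Tet2 KO, 8126, 7139 and 5040.3 in Traf6 KO, and in dKO 6655, 10818 and 22109. The dKO libraries were all above WT, and H2-T23 rose by 1.04 on the log2 scale (SE 0.35, limma adjusted p = 0.0269). The call was lost without WT 2, WT 3 or dKO 3 (highest adjusted p 0.0899), and without the 3 libraries apart the change was 0.58 (adjusted p = 0.085). H2-M3 (1123 to 1715 in WT, 1170 to 3998 elsewhere) and H2-Q5 (624 to 947 in WT, 418 to 2089 elsewhere) passed in no comparison.

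Among the class II chains, H2-Ea-ps was the only one of 5 that passed against WT in any comparison. H2-Aa, the alpha chain of the A molecule, had signals of 4202, 4468 and 2929 in WT, 1652, 1762 and 1552 in Tet2 KO, 1685, 1658 and 1373 in Traf6 KO, and in dKO 832, 1019 and 7966. Of the 9 libraries outside WT, 8 were below it and dKO 3 was above. Its log2 changes were -1.20, -1.28 and -1.01 (SE 0.61; limma adjusted p = 0.662, 0.651 and 0.186). Without the 3 libraries apart they were -1.20, -1.33 and -2.04 and passed (adjusted p = 0.0353, 0.0459 and 0.000782).

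H2-Ab1, the matching beta chain, had 6563, 5429 and 4286 in WT, 3614, 5179 and 4414 in Tet2 KO, 3412, 4255 and 3284 in Traf6 KO, and in dKO 3556, 5359 and 17999. Its log2 changes were -0.30, -0.56 and 0.39 (limma adjusted p = 1, 0.808 and 0.488). H2-Eb1, the beta chain of the E molecule, had 1214, 1449.8 and 914 in WT, 790.0, 1011 and 1059 in Tet2 KO, 856, 856 and 796 in Traf6 KO, and in dKO 416, 532 and 3978. Neither chain passed, and dKO 3 was the highest library of both. H2-Eb1 passed in dKO without the 3 libraries apart (-1.31, adjusted p = 0.00431). The ratio of H2-Aa to H2-Ab1 was 0.64 to 0.823 in WT and 0.19 to 0.494 in the other 9 libraries. H2-Eb2 was at 6.39 or below in WT and between 2.11 and 55.7 elsewhere.

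Of the 5 accessory genes, 1 rose in Tet2 KO, 0 changed in Traf6 KO and 3 rose in dKO. H2-Ob, the beta chain of H2-O, which restrains H2-DM, rose in Tet2 KO: its signals were 1296, 1321 and 1167 in WT, 3376, 4369 and 3177 in Tet2 KO, 2166, 2544 and 2084 in Traf6 KO, and in dKO 2564, 2843 and 3469. All 9 libraries were above WT. The log2 changes were 1.52 in Tet2 KO (SE 0.22, limma adjusted p = 0.00481), 0.84 in Traf6 KO (adjusted p = 0.209) and 1.22 in dKO (adjusted p = 0.0011). The Tet2 KO call had an adjusted p of 0.0564 without WT 3. Its partner H2-Oa was at 764, 642 and 611 in WT, 444, 666 and 609.8 in Tet2 KO, 405, 571 and 269 in Traf6 KO, and in dKO 524, 767 and 3846. It did not pass against WT. The ratio of H2-Ob to H2-Oa was 1.7 to 2.06 in WT, 3.71 to 7.75 in 8 other libraries and 0.902 in dKO 3.

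H2-DMa, the alpha chain of H2-DM, had 3714, 3570.2 and 3279 in WT, 3793, 7060.1 and 5886 in Tet2 KO, 4824, 6057 and 5028 in Traf6 KO, and in dKO 7245, 10873 and 39572. All 9 libraries were above WT, and the gene rose in dKO (log2 change 2.05, SE 0.46, limma adjusted p = 0.00394; 1.34 without the 3 libraries apart, adjusted p = 0.00202). In Tet2 KO and Traf6 KO the changes were 0.62 and 0.59 (adjusted p = 0.913 and 0.808). H2-DMb1, the beta chain, had 1473, 1419 and 1120.5 in WT, 1114, 1744 and 1409 in Tet2 KO, 1403, 1355 and 1216 in Traf6 KO, and in dKO 1794, 2710.4 and 4956. It rose in dKO (1.12, SE 0.32, adjusted p = 0.0132), but after correction for length and GC the change was 0.19 (adjusted p = 0.49), and without WT 3 the adjusted p was 0.0556.

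H2-DMb2, the second beta chain gene, was lower in 8 of the 9 libraries (431 to 535 in WT, 81.9 to 212 in those 8 and 499 in dKO 3), and it is named after its values were seen. Its log2 changes were -1.80, -2.18 and -1.19 (limma adjusted p = 0.202, 0.149 and 0.071). After correction for length and GC they were -1.92, -2.25 and -2.08 and passed (adjusted p = 0.0367, 0.0138 and 0.00203). It passed in dKO without the 3 libraries apart (-1.80, adjusted p = 0.00572). H2-DMb2 shares 21.2% of its stretches with H2-DMb1, and their ratio was 0.347 to 0.385 in WT and 0.0583 to 0.15 elsewhere.

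**Figure D4:**
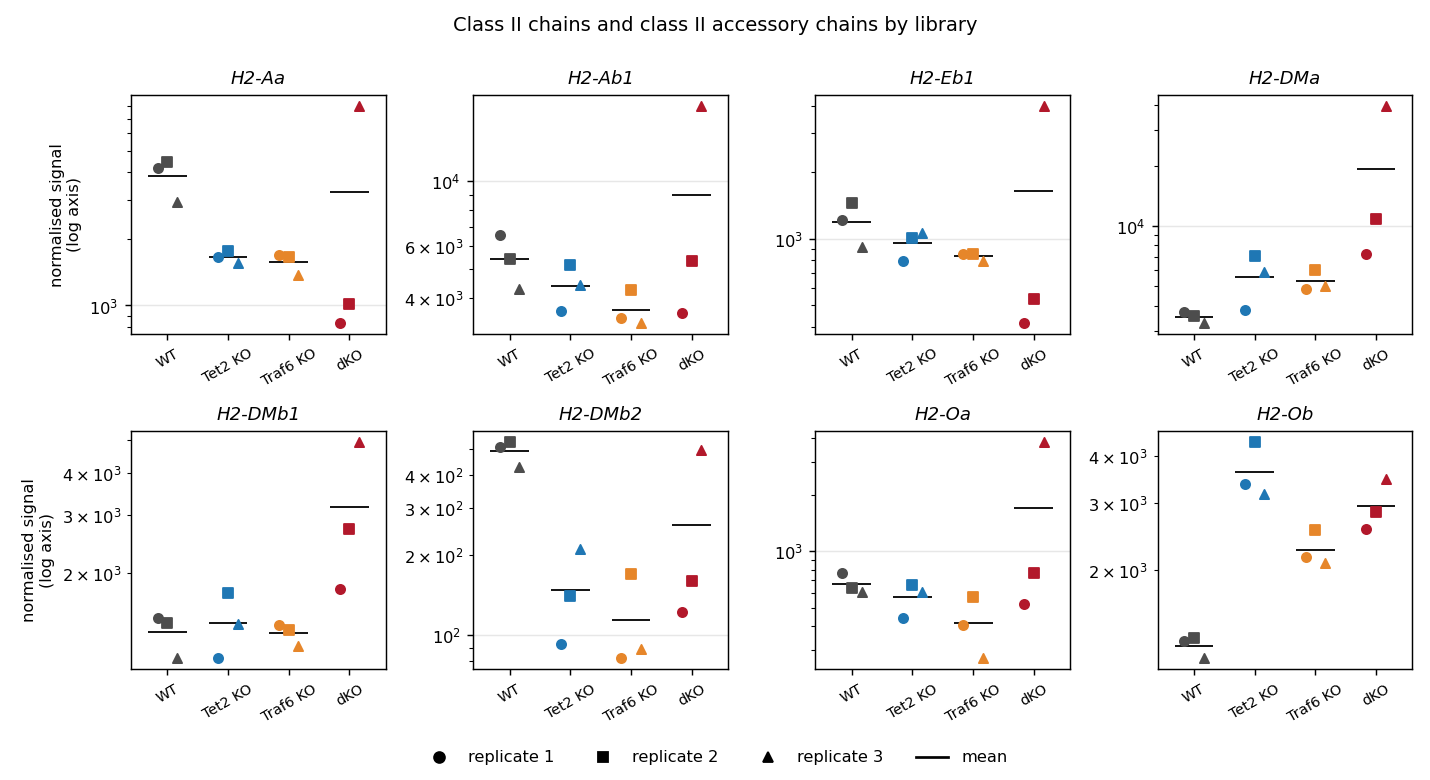
Points are single libraries by genotype on a log axis of normalised signal, marker shape gives the replicate number and bars are means (n = 3). H2-Ob is above WT in all 9 other libraries, H2-Aa and H2-DMb2 are below WT in 8 of 9, and dKO 3 is the highest dKO library in all 8 panels.

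Class II genes mark B cells and presenting myeloid cells, so the marker lists of these cells are given beside them. In bulk RNA, fewer cells of a type and less RNA per cell cannot be told apart. The summed signal of 8 B cell markers was 6683 to 9748 in WT, 11777 to 67916 in Tet2 KO, 6589 to 32273 in Traf6 KO and 7589 to 60434 in dKO. Of those 8, 4 were above 0 in every library, while Pax5 was at 8.71 or below. The highest H2-Ob library, Tet2 KO 2, also held the most Ighm (54157), but other libraries did not rank alike. Traf6 KO 3 had 23357 of Ighm and the lowest H2-Ob outside WT (2084). Ighm was 8919 and 9710 in Tet2 KO 1 and 3, where H2-Ob was also above WT. The sum of 11 dendritic cell and macrophage markers was 9603 to 15244 in WT, 9160 to 14960.2 in the single knockouts and 14647 to 49373 in dKO. Within that list Lyz2 and Cd68 rose in dKO (log2 changes 1.2 and 2.61, limma adjusted p = 0.0303 and 0.000349) and Itgam fell (-1.02, adjusted p = 0.0377), and Cd209a was at 0 in WT, Tet2 KO and dKO. The sum of 8 T and NK cell markers was 3513 to 4669 in WT, 3715 to 6588 in the single knockouts and 7520.5 to 49512 in dKO. Most of it was Nkg7, which rose in dKO (2.0, adjusted p = 0.00724), while Cd3e was at 0 in every library. The sum of 8 LSK markers was 125993 to 140645 in WT, 107034 to 154387 in the single knockouts and 87204 to 106457 in dKO. Among these, Kit (-2.99), Slamf1 (-0.95) and Meis1 (-0.89) fell in dKO (adjusted p up to 0.0211), and Ly6a (0.88), Cd34 (0.26), Flt3 (0.27) and Procr (0.53) did not pass. The part of these cells in the H2 values was not tested.

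The 3 genes that carry the prefix only were also read. H2-Ke2 had 968, 808 and 833 in WT, 817, 1120.1 and 1341 in Tet2 KO, 785, 1359.6 and 921 in Traf6 KO, and in dKO 1802, 1994 and 9760. It rose in dKO by 1.92 (SE 0.51, limma adjusted p = 0.00837). After correction for length and GC the change was 0.55 (adjusted p = 0.0971). H2-Ke6 had 19.2, 25.1 and 6.73 in WT, 48.5, 37.8 and 29.5 in Tet2 KO, 30.9, 13.9 and 24.9 in Traf6 KO, and in dKO 36.6, 33.9 and 119.7, a rise by 1.76 in dKO (adjusted p = 0.0468) that was kept in 3 of the 12 fits that left out 1 library (1.18 without dKO 3, adjusted p = 0.178; 1.18 without the 3 libraries apart, adjusted p = 0.195). It shares 70.5% of its stretches with the overlapping annotation Gm20427.

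The dKO libraries were also compared with each single knockout. These groups differ in Xist and Eif2s3y as well, so loss of the second gene cannot be told apart from sex here. Against Tet2 KO, 5 members rose and 0 fell, where 35.3% of all genes passed (15.5% higher, 19.9% lower), and against Traf6 KO 5 rose and 0 fell, where 38.0% passed (17.3% higher, 20.7% lower). The share of members that rose, 17.2% in each, stood near the share of genes that rose. The risers against Tet2 KO were H2-DMa (log2 change 1.44, limma adjusted p = 0.0309), H2-DMb1 (1.05, 0.0267), H2-Ke2 (1.61, 0.0276), H2-D1 (0.72, 0.0474) and H2-T23 (0.96, 0.0485). Those against Traf6 KO were H2-DMa (1.47, 0.0281), H2-DMb1 (1.13, 0.0205), H2-Ke2 (1.72, 0.022), H2-K2 (1.03, 0.0459) and H2-Oa (1.54, 0.0466). Without the 3 libraries apart 0 members passed in either comparison, where 1.21% and 12.1% of all genes passed. The count against Tet2 KO was also 0 without Tet2 KO 1 (6.26% of all genes), 1 without Tet2 KO 3, 2 without Tet2 KO 2 or dKO 2, 3 without any 1 WT or Traf6 KO library and 9 without dKO 1 (48.2% of all genes). Against Traf6 KO it was 0 without Traf6 KO 1 or 3 (16.5% and 14.8% of all genes), 3 without any 1 WT library, Tet2 KO 1 or Tet2 KO 2, and 11 without dKO 1 (49.8% of all genes). In the fits named without a share, 23.9% to 35.5% of all genes passed against Tet2 KO and 32.4% to 35.9% against Traf6 KO. Without dKO 3 alone, 1 member rose and 3 fell against Tet2 KO, and 1 rose and 2 fell against Traf6 KO (24.1% and 22.4% of all genes passed). After correction for length and GC the counts were 2 and 0, where 15.4% and 18.8% of all genes passed. Between Traf6 KO and Tet2 KO 0 members passed in limma, edgeR or DESeq2, where 0.157% of all genes passed (0.0783% higher, 0.0783% lower). Unadjusted p was under 0.05 for 2 of 29 members there, H2-Ob (log2 change -0.68) and H2-T24 (-0.67), beside 1207 of 14045 genes. The share of members was no higher than that of all genes.

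The interaction term, the effect of Traf6 loss in Tet2 KO cells minus that in WT cells, passed for 4 members, all above 0, where 0.221% of all genes passed (0.107% above and 0.114% below 0). The values were 7.67 for H2-Q1, 5.90 for H2-Q10, 4.23 for H2-Q2 and 3.88 for H2-Q4. WT was the 1 high group for these genes, and H2-Q1 and H2-Q10 passed the filter on low values through WT. The term therefore restates the difference between WT and the other groups, and it is given as a description with no reading of how the losses combine. The change of dKO against Tet2 KO was 0.87, 1.26, 0.00 and 0.21 for H2-Q1, H2-Q10, H2-Q2 and H2-Q4, and none of those passed. The term passed for 0 members without WT 1, 2 or 3, for 15 without dKO 1 (where 17.7% of all genes passed), for 2 without Tet2 KO 2, Traf6 KO 3 or dKO 2 and for 1 without the 3 libraries apart. In these fits other than that without dKO 1, 0.101% to 0.165% of all genes passed.

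The neighbours of the H2 genes were counted to see whether the lower values extend along the chromosome. Between the outermost members lie 104 other tested genes, of which 4 fell in Tet2 KO against WT (3.85%) and 3 in Traf6 KO (2.88%), with 0 rises. On the rest of chromosome 17, beyond 5 Mb on either side, 0.601% and 0.2% of 499 genes passed, and within 5 Mb on either side 0 of 84 and 0 of 7 passed. The neighbours named here were Mdc1, which encodes a DNA damage mediator, and the pseudogenes Gm18733, Gm10499 and C920025E04Rik in Tet2 KO, and Mdc1, Gm18733 and Hspa1b, a heat shock gene, in Traf6 KO. Mdc1 was at 1433, 1976 and 1657 in WT, 450.4 to 528 in Tet2 KO, 495 to 649 in Traf6 KO and 196 to 365 in dKO (log2 changes -1.81, -1.62 and -2.76; limma adjusted p = 0.0123, 0.037 and 0.000261). Gm18733 was at 24.1, 44.6 and 51.9 in WT and at 0 in all 9 others, and Gm10499 at 194 to 224 in WT and 0 to 23.2 elsewhere. C920025E04Rik, a T region class I pseudogene, was at 702, 848 and 736 in WT and 100.2 to 365 elsewhere. Hspa1b was at 769.9, 417 and 497 in WT, 4161, 547 and 432 in Tet2 KO, 6.37, 0 and 12.4 in Traf6 KO, and in dKO 14.1, 27.4 and 393, so its libraries did not follow the same split. Neither alleles nor strain of these mice were analysed here, and the part of H2 haplotype in these values was not tested.

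**Figure D5:**
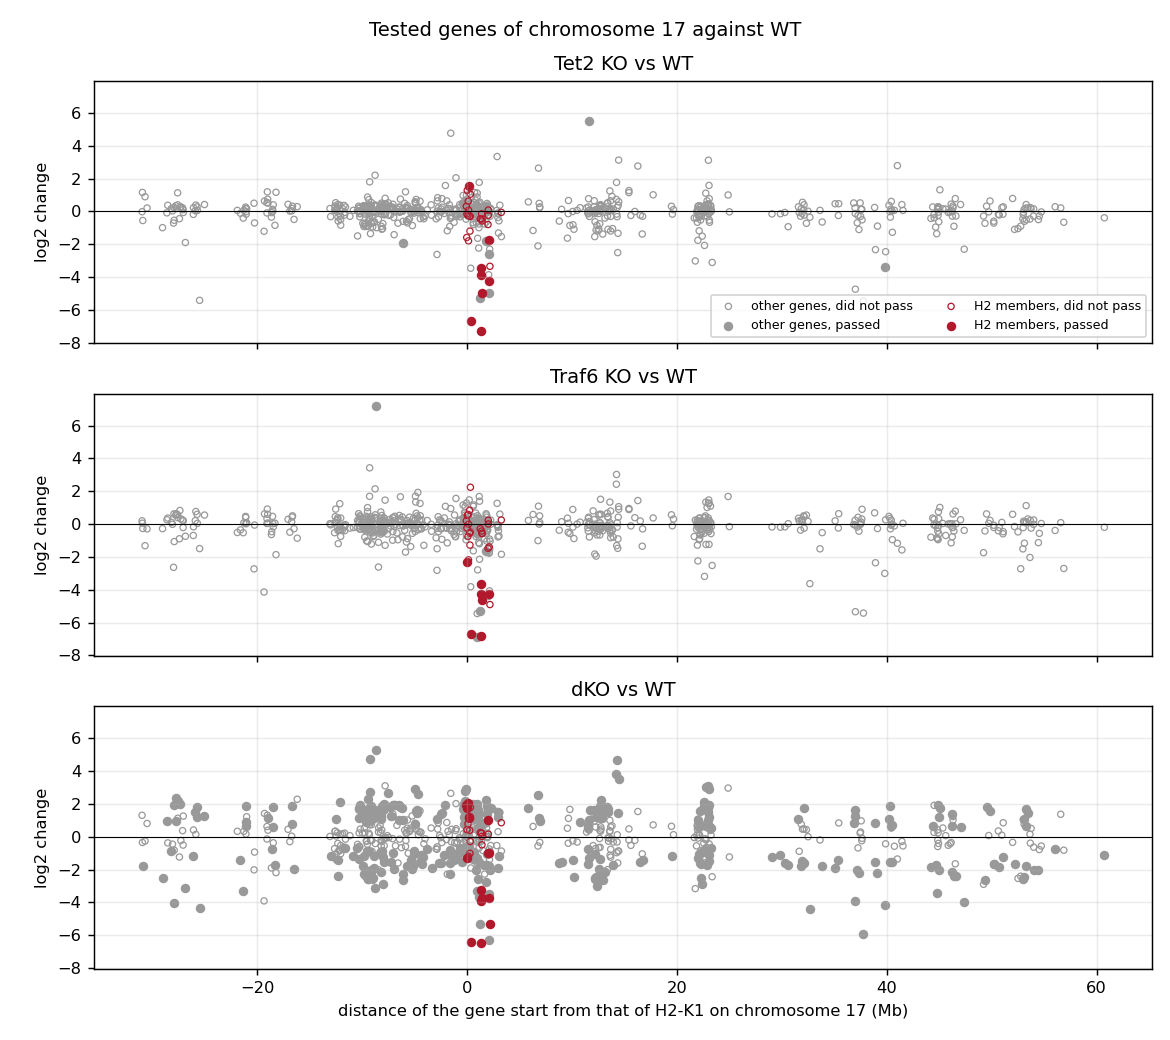
Each point is a tested gene of chromosome 17, placed by the distance of its start from that of H2-K1 (Mb), with its log2 change against WT in Tet2 KO, Traf6 KO and dKO from top to bottom; red marks H2 members and filled points passed the threshold. In the Tet2 KO and Traf6 KO panels nearly all filled points below 0 lie in the H2 cluster, to the right of H2-K1, while in the dKO panel filled points spread along the chromosome.

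Genes that serve the H2 molecules without carrying the prefix were read as a list of 32. In Tet2 KO and Traf6 KO 0 of 32 passed against WT in either direction (median log2 change -0.02 and 0.02). In dKO 11 rose and 8 fell, 59.4% against 48.3% of all genes. B2m, the light chain of class I, was at 60805 to 73215 in WT, 45987 to 79737 in the single knockouts and 64399, 97828 and 475215 in dKO. It did not pass in limma (dKO against WT 1.09, adjusted p = 0.0995) but did in edgeR (1.55, adjusted p = 0.0292) and DESeq2 (1.68, adjusted p = 0.00573), with dKO 3 far above all other libraries. Nlrc5, the transactivator of class I genes, was at 2471, 4123 and 3365 in WT, 1883, 609 and 575 in Tet2 KO, 2381, 1135 and 1867 in Traf6 KO, and in dKO 437, 386 and 319.9. It fell in dKO (log2 change -3.10, SE 0.42, limma adjusted p = 0.000366), where H2-K1 and H2-D1 did not pass. In Tet2 KO its change was -1.90 (adjusted p = 0.0877), and -2.45 without the 3 libraries apart (adjusted p = 0.00487).

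Ciita, the transactivator of class II genes, fell in dKO (-1.72, limma adjusted p = 0.0253; -0.22, adjusted p = 0.772, after correction for length and GC). Rfx5, which binds class II promoters, fell by 2.23 (adjusted p = 0.000831). Cd74, the invariant chain of class II, was at 9077, 8635 and 6618 in WT, 3428 to 4385 in Tet2 KO, 2378 to 2548 in Traf6 KO, and in dKO 1297, 1143 and 7356. Its fall passed in dKO (-1.86, adjusted p = 0.0106), with -1.05 and -1.69 in the single knockouts (adjusted p = 0.635 and 0.341; 0.0385 and 0.00468 without the 3 libraries apart). Tap1 (-0.58), Erap1 (-1.31) and Creb1 (-1.47) were also among the falls in dKO. After correction for length and GC none of these 3 passed, and Tap1 turned to 0.29 (adjusted p = 0.332). Without the 3 libraries apart Tap1 was lost in dKO (adjusted p = 0.059) and Creb1 passed in Tet2 KO (-1.20, adjusted p = 0.0127). The rises were the immunoproteasome and activator subunits Psmb8 (1.72), Psmb9 (1.44), Psmb10, Psme1 and Psme2, the chaperones Calr and Pdia3, and the endosomal Ctss (1.86), Ctsl, Lgmn and Ifi30. The calls of Psmb10, Psme2, Calr, Lgmn and Ifi30 were lost after that correction (adjusted p between 0.106 and 0.517), and that of Ctsl without the 3 libraries apart (adjusted p = 0.0626).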

How the data were processed

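Bulk RNA of LSK cells was measured in 12 libraries of 4 genotypes, 3 per genotype. Libraries were made with a SMART-Seq low-input kit, which does not mark strand, and sequenced on an Illumina HiSeq, per the labels' protocols. Per the submitters' processing notes, the tools were bcl2fastq, STAR, featureCounts and DESeq2, with mm10 and GRCm38 as builds. The sources used here do not give versions, read length or how reads with several matches were handled. The authors deposited 1 table of normalised signal per gene: each value is a read count divided by a size factor of the library, and 100% of values were whole reads within 1e-06 after division by the value of 1 read (0.518 to 1.79). The libraries held 22169673 to 53921402 such reads.

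Values were taken as log2(signal + 1), genes with at least 10 in at least 3 libraries were kept (14045 of 37187), and limma 3.58.1 in R 4.3.3, with trended and robust variance, was fitted to all 12 libraries as 4 groups. P-values were adjusted by Benjamini-Hochberg within each of 7 comparisons, at a threshold of 0.05. On data simulated for Tet2 KO against WT (14045 genes) the fit recovered 16.2%, 80.3% and 100.0% of genes changed by 1, 2 and 4 on the log2 scale, with 11 false calls. Alternatives were a pseudocount of 5, no filter, equal library totals, the replicate number as a block, removal of the loess trend on transcript length and GC content (13679 genes), edgeR 4.0.16 and DESeq2 1.42.0 on recovered reads, and each library left out. Leaving out 3 libraries together was chosen after seeing the data.

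Symbols were matched to GENCODE M21 (28388 by symbol, 2113 by synonym). Values are given library by library for members past the threshold in any comparison and for the 3 highest per kilobase in each class. Other members are given by range. Members and lists were chosen with earlier results of these data known.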

Additional observations from a re-analysis of the deposited data

Results flagged for a closer look

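The interaction term, which sets the change with Traf6 loss in Tet2 KO against that in WT, was above 0 and past the threshold for 4 members, which is why they are listed here. It was 7.67 for H2-Q1, 5.90 for H2-Q10, 4.23 for H2-Q2 and 3.88 for H2-Q4 on the log2 scale. In all 4 genes the signal was high in the 3 WT libraries and low in the other 9, so the term restates the difference between WT and the other groups and is no separate result on how the 2 losses combine.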

How the results depend on the processing

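The number of members past the threshold in each comparison was set against 9 alternatives and 12 fits that left out 1 library. In Traf6 KO against WT, DESeq2 called 12, where 1.19% of all genes passed. In dKO against Tet2 KO the count of 5 became 2 without a filter, 3 with equal library totals, 2 after the length and GC correction, 8 with DESeq2 and 0 without the 3 libraries apart. In dKO against Traf6 KO the count of 5 became 3, 3, 0, 8 and 0 under the same settings. There 16.1%, 34.7%, 15.4%, 43.6% and 1.21% of all genes passed against Tet2 KO. Against Traf6 KO the shares were 16.7%, 34.7%, 18.8%, 45.4% and 12.1%. For the interaction the 3 libraries left out gave 1, where 0.14% of all genes passed. Replicate numbers did not pair the libraries (correlations of deviations -0.177 to 0.193 over 18 pairs, 3 of them over 0.1). With the replicate block the counts were 7, 7 and 15 against WT, where 0.32%, 0.206% and 46.8% of all genes passed. They were 4 and 3 for dKO against Tet2 KO and Traf6 KO and 2 for the interaction. There 33.0%, 35.0% and 0.178% of all genes passed. With the replicate block and that correction, dKO gave 1 and 0 against Tet2 KO and Traf6 KO, where 15.2% and 18.7% passed. Leaving out 1 library gave 1 to 9, 2 to 12 and 10 to 19 against WT. There 0.0932% to 1.01%, 0.101% to 0.57% and 33.7% to 55.6% of all genes passed. It gave 0 to 9 and 0 to 11 for dKO against Tet2 KO and Traf6 KO (6.26% to 48.2% and 14.8% to 49.8% of all genes). For Traf6 KO against Tet2 KO it gave 0 (0.115% to 0.339%) and for the interaction 0 to 15 (0.101% to 17.7%). The cause was not tested, except that with a WT library left out H2-Q1 and H2-Ea-ps had too few libraries for the filter. Of single calls under these settings 736 stayed past the threshold in the same direction, 186 did not pass and 0 reversed. Depth limits the low values: 3 reads correspond to a signal of 1.55 to 5.36.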
